A study of Mus musculus with 100 samples.

Results

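The 7 genes described here, which mark the cell surface on the way from fibroblast to pluripotent cell, are Thy1, Cd44, Icam1, Fut4, Fut9, Alpl and Pecam1. They were chosen by name, 7 of the 25965 genes in the expression table, and followed over all 18 RNA-seq libraries of the series. The mouse embryonic fibroblasts (MEFs) came from mid-gestation F1 embryos of an i4F-BL6 mother (C57BL/6J background, with a doxycycline-inducible cassette of the Yamanaka factors Oct4, Sox2, Klf4 and c-Myc) and a CAST father. The MEFs and the iPSC lines made from them all descend from this cross. The 4 iPSC lines were each 1 colony picked after 12 days of doxycycline and grown on without it in Knockout Serum Replacement (KSR) medium with LIF: F KSR2 and F KSR4 from the single female embryo, M KSR3 and M KSR5 from male MEFs of the same crosses. TX 2i ESCs are the female embryonic stem cell line TX1072, from a BL6 by CAST cross too, kept in serum and LIF with inhibitors of MEK and GSK3 (2i). Each of the 6 groups had 3 libraries, called biological replicates by the study. Since 1 female embryo gave the MEFs and each line is 1 clone, p-values measure the spread between these samples and not between animals. Male MEFs have no RNA library here, so the male lines were compared with female MEFs. The sorted intermediates of reprogramming (days 12 and 24), for which antibodies to THY1 and to SSEA1 were used, were not analysed here.

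Fibroblasts lose surface proteins early when they are reprogrammed and gain those of embryonic cells later, and this order is used to sort cells that progress from cells that do not. THY1 is a small glycoprotein held in the membrane by a lipid anchor and is high on fibroblasts, CD44 is the receptor for hyaluronan, and ICAM1 is an adhesion ligand of leukocyte integrins. SSEA1 is a sugar, the Lewis X epitope, and has no gene of its own: alpha-1,3-fucosyltransferases such as FUT4 and FUT9 finish it. Alkaline phosphatase (ALPL) stains pluripotent colonies, and PECAM1, known from endothelium, is also carried by mouse embryonic stem cells.

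The genes lie on 4 chromosomes, and the coordinates that follow are GRCm38 as in the table. On chromosome 9 are Thy1 at chr9:44043384-44048579 on the plus strand (ENSMUSG00000032011), Icam1 at chr9:21015960-21028797 on the plus strand (ENSMUSG00000037405) and Fut4 at chr9:14748459-14752122 on the minus strand (ENSMUSG00000049307). Chromosome 4 holds Fut9 at chr4:25609332-25800244 (ENSMUSG00000055373) and Alpl at chr4:137741733-137796384 (ENSMUSG00000028766), both on the minus strand. Cd44 is at chr2:102811141-102901665 (ENSMUSG00000005087) and Pecam1 at chr11:106654217-106750628 (ENSMUSG00000020717), also on the minus strand. All 7 are protein coding, and the values count reads over their exons.

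RefSeq promoters (GRCm38.p6, 250 bases before the start of transcription) were on hand for 4 of the 7 genes. Those of Cd44, the member that fell furthest, and of Icam1 and Alpl, which rose, are shown as 1 gene that fell and 2 that rose, with letters that matched a motif in capitals. The Cd44 promoter is chr2:102901666-102901915 on the minus strand, the Icam1 promoter chr9:21015690-21015939 on the plus strand, and the upstream Alpl promoter chr4:137796385-137796634 on the minus strand.
Cd44: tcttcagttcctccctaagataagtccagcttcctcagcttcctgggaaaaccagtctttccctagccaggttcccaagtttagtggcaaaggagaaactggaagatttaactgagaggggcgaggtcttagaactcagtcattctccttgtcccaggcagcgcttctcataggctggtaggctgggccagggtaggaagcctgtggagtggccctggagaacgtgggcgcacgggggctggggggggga
Icam1: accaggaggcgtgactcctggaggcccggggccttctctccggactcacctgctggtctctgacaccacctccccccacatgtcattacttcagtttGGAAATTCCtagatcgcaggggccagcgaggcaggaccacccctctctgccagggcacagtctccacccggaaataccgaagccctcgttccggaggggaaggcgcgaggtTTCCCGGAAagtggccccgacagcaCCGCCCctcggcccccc
Alpl: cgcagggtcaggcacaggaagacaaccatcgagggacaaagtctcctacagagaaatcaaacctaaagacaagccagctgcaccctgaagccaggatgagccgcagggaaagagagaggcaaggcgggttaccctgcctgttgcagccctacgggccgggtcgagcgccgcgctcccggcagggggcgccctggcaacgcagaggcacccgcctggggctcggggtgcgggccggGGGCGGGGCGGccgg
The Cd44 promoter held 5 CpGs, the Icam1 promoter 15 and the Alpl promoter 20, against a median of 6 over 32841 promoters of the same length. Of the promoters not printed, that of Fut4 held 16 CpGs and no match, and that of the second Alpl start 4 CpGs and a TATAAA match. Motifs searched on both strands were GGGCGG (in 32.7% of all promoters), TATAAA (12.4%), CACGTG (6.02%), TGANTCA (6.75%), TTCCNGGAA (0.913%), ATGCAAAT (1.60%) and GGAAATTCC (0.286%). Icam1 matched GGAAATTCC 153 to 145 bases before the start, TTCCNGGAA 42 to 34 bases before it and, on the other strand, GGGCGG 17 to 12 bases before it. Alpl matched GGGCGG in 2 places that share a base, the first at 15 to 10 and the second at 10 to 5 bases before the start. No motif of the list was matched in the Cd44 window.

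The libraries held 13183036 to 17921280 reads on genes (median 15722711), of which 17.7 to 19.9% could be given to the maternal BL6 or the paternal CAST genome. The values are on the log2 scale of reads-per-million (RPM), with no correction for gene length, and a gene without reads is held at 0.9 read. All 15 fibroblast markers such as Col1a1 were called lower in the pluripotent groups than in MEFs, and all 10 pluripotency markers such as Pou5f1 higher, as the labels have it. Some other cells' markers moved with this contrast, and their part in it was not tested. Over 7 blood markers, summed RPM was 135 to 173 in MEFs and 2.87 to 6.72 elsewhere, with Lyz2 at 1988 to 3075 reads in MEFs and at 0 elsewhere. Over 5 neuron markers it was 5.25 to 8.88 in MEFs and 144 to 295 elsewhere, mostly Stmn2 (2272 to 5147 reads), while over 8 endothelial markers the ranges overlapped (24.5 to 26.1 against 15.8 to 32.1).

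Against MEFs, 6 of the 7 genes differed in the mean of the 5 pluripotent groups: Icam1, Fut9, Alpl and Pecam1 were higher and Thy1 and Cd44 lower. In this contrast limma called 42.1% of the 14632 genes tested higher and 32.5% lower at an adjusted p of 0.05, so a change in itself does not set the members apart. Group by group, 6 members were called in F KSR2, M KSR3 and M KSR5, and all 7 in F KSR4 and TX 2i ESCs, where Fut4 was added. Of all tested genes, 67% were called in the same comparison for F KSR2 and 65.8% for F KSR4. For M KSR3 it was 67.6%, for M KSR5 67.9%, and for the ESCs 66.5%. All 5 comparisons share the same MEF libraries. In these bulk samples, fewer cells with a transcript and less of it per cell cannot be told apart.

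**Figure D1:**
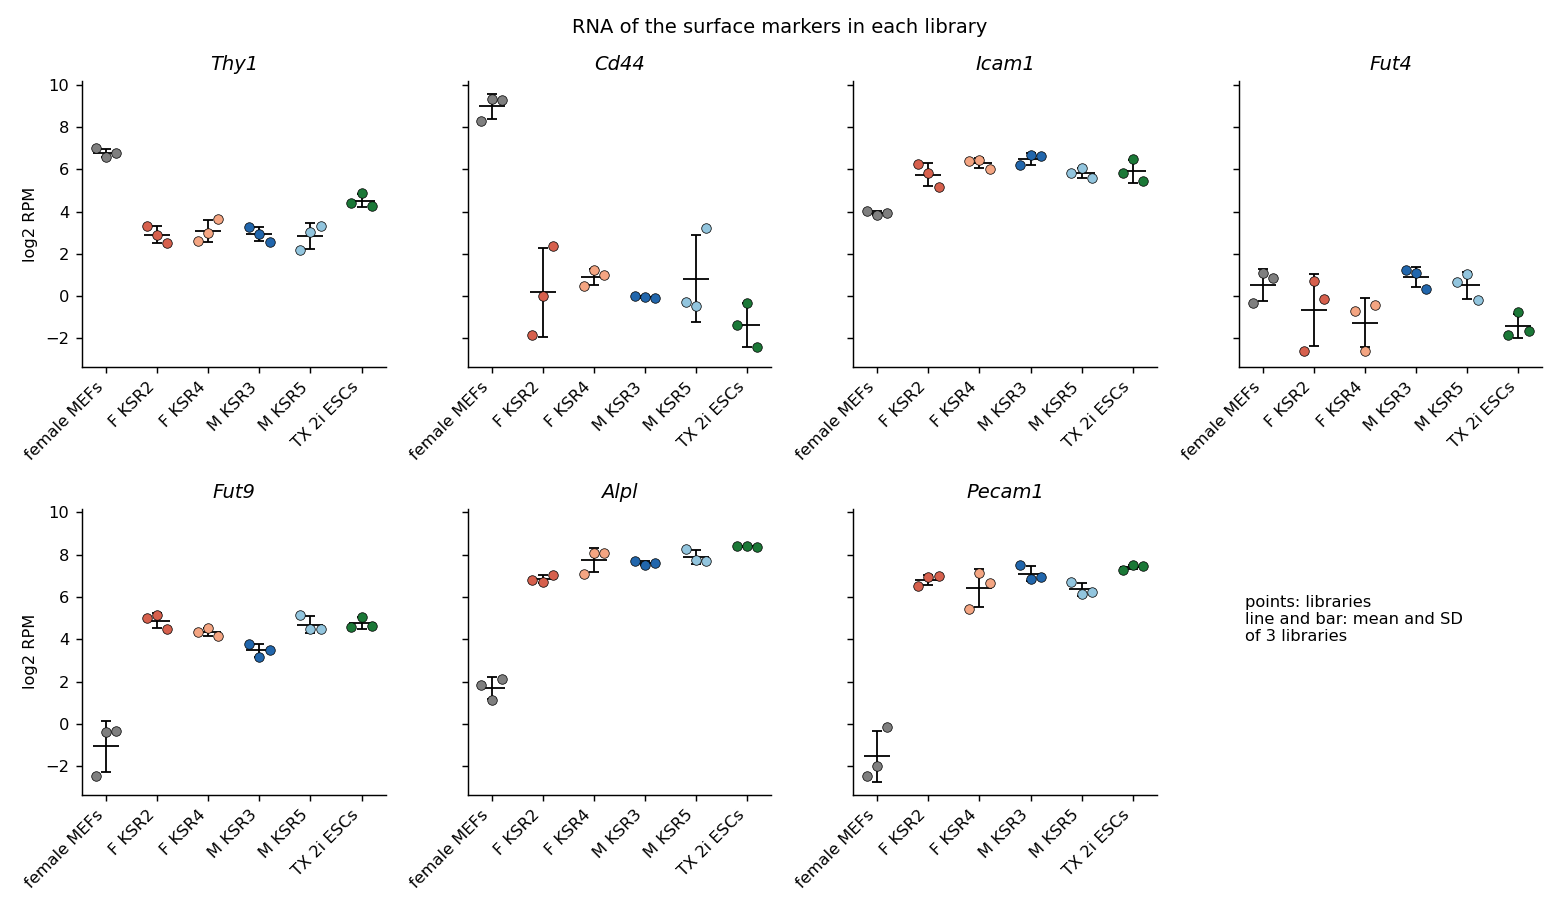
Level of each of the 7 genes (y axis, log2 RPM) in every library of the 6 groups (x axis), with the mean and SD of 3 libraries as a line and bar. Thy1 and Cd44 are highest in MEFs, Alpl, Pecam1, Fut9 and Icam1 are lowest there, and Fut4 stays between -2.59 and 1.25 log2 RPM in all groups.

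Thy1, the marker used for sorting, was at 6.99, 6.60 and 6.75 log2 RPM in the MEF libraries (1907 to 2083 reads). In TX 2i ESCs it was at 4.40, 4.86 and 4.28 (305 to 542 reads). In the 12 KSR-iPSC libraries it lay between 2.16 and 3.64 with a median of 2.98 (81 to 184 reads). The 3 levels did not overlap, while the 4 iPSC lines overlapped one another throughout, with means from 2.85 ± 0.61 in M KSR5 to 3.08 ± 0.52 in F KSR4 (SD, n = 3). Against MEFs, Thy1 fell by 3.53 on the log2 scale in the mean of the pluripotent groups (SE 0.26, limma adjusted p = 1.31e-09). The iPSCs held 7.20% of the mean RPM of MEFs (4.04 to 11.2% over the libraries) and the ESCs 20.9% (17.5 to 26.2%).

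Cd44 was the most abundant member in MEFs, also per kb of exons, at 8.29, 9.33 and 9.29 log2 RPM (5142 to 12633 reads). In the pluripotent libraries it lay between -2.39 and 3.21, with 3 to 160 reads and a median of -0.04. It fell by 8.87 (SE 0.72, limma adjusted p = 5.61e-09), or -7.77 with 1 added to each RPM, to 0.409% of the MEF mean in KSR-iPSCs and 0.0875% in TX 2i ESCs. A pair of iPSC libraries stood above their own lines: M KSR5 replicate 3 at 3.21 (160 reads), where the other two were at -0.27 and -0.46, and F KSR2 replicate 3 at 2.37 (85 reads), where the other two were at -1.84 and 0.03. In M KSR5 replicate 3 the median fibroblast marker stood at 0.694% of its MEF level, against 0.0352 to 0.317% in the other 14 pluripotent libraries, whereas F KSR2 replicate 3 was within that range at 0.202%. The part of residual fibroblast RNA in these Cd44 values was not tested.

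What was left of Thy1 in the pluripotent cells was more than what was left of most fibroblast markers. Of 15 markers, mostly matrix proteins and mesenchymal transcription factors, the median kept 0.273% of its MEF level in KSR-iPSCs and 0.0591% in TX 2i ESCs. Thy1 kept more than all but Fn1 (9.88%) and Twist1 (7.94%) in iPSCs and more than all 15 in ESCs. Among 14 other surface proteins of fibroblasts it was not unusual, since 8 of them kept more than Thy1 in iPSCs and 6 did in ESCs. Cd44, at 0.409%, was close to the median fibroblast marker in iPSCs.

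**Figure D2:**
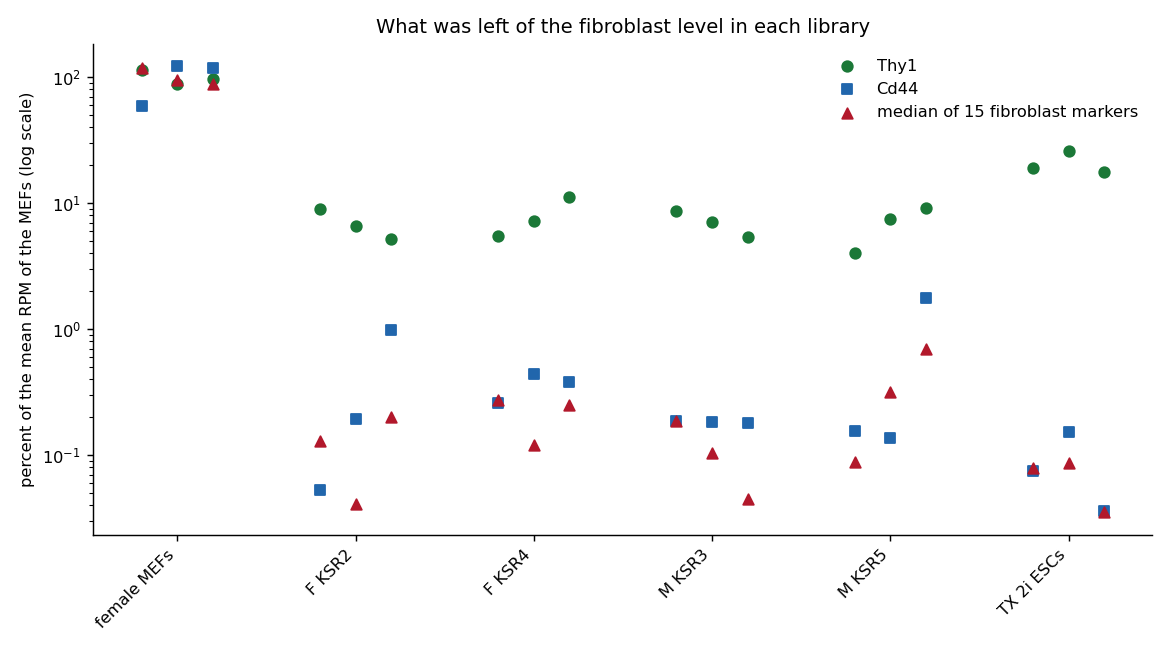
Level left in each library (y axis, percent of the mean RPM of MEFs, log scale) for Thy1, Cd44 and the median of 15 fibroblast markers, by group (x axis). Thy1 stays at 4.04 to 11.2% in the iPSC libraries and 17.5 to 26.2% in TX 2i ESCs, above both other series in every pluripotent library.

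Those 14 surface proteins fell as a group: 12 were called lower in the pluripotent groups, none higher and 2 were not called. Their median log2 difference was -3.46 against 0.21 over all genes tested, of which 42.1% were called higher and 32.5% lower. Vcam1, an integrin ligand, fell by 9.24 (limma adjusted p = 5.58e-08) and the mesenchymal marker Cd248 by 8.48 (limma adjusted p = 1.09e-08). Fap, a fibroblast protease, had 212 to 335 reads in MEFs and at most 1 read in any pluripotent library. The endoglin gene Eng (0.26, adjusted p = 0.196) and Mcam (-0.04, adjusted p = 0.890) were not called by limma. Pdgfra, often used beside Thy1 to mark fibroblasts, behaved differently among the lines, at 4.96 ± 0.03 log2 RPM in M KSR3 and 1.36 ± 0.62 in F KSR4 (SD, n = 3). The partners of CD44 and of the adhesion proteins were mixed, with 4 higher, 7 lower and 2 not called of 13 tested, beside those same all-gene shares. Hyaluronan synthases were among them: Has2 fell by 6.24 (limma adjusted p = 6.52e-09) and Has1 by 4.51 (limma adjusted p = 5.00e-06), while Has3 rose by 2.13 (limma adjusted p = 0.0143). Itgam, a leukocyte integrin chain that is also in the blood list above, fell by 3.89 (limma adjusted p = 3.76e-06). Ptpn6, a phosphatase that binds PECAM1, rose by 2.30 (limma adjusted p = 7.79e-05), and Ezr, which ties CD44 to the cortex, by 2.19 (limma adjusted p = 5.00e-11). Icam2, the relative of Icam1, had at most 37 reads and was not tested.

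Icam1, which is known from activated somatic cells, rose. MEFs were at 4.04, 3.85 and 3.92 log2 RPM (270 to 288 reads), and the 15 pluripotent libraries lay between 5.18 and 6.69 with a median of 6.08 (596 to 2017 reads). No pluripotent library reached down to the MEFs. The difference was 2.12 (SE 0.21, limma adjusted p = 7.68e-08), and the mean RPM of the pluripotent libraries was 452% of that of MEFs. All 5 pluripotent groups overlapped with their neighbours in order, from M KSR3 at 6.50 ± 0.27 down to F KSR2 at 5.75 ± 0.54 (SD, n = 3).

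Alpl was at 1.85, 1.13 and 2.13 log2 RPM in MEFs (43 to 83 reads). The 12 iPSC libraries lay between 6.69 and 8.26 with a median of 7.64. TX 2i ESCs were at 8.42, 8.42 and 8.37 (5191 to 6406 reads). The ESCs were above every iPSC library, and F KSR2, at 6.79, 6.69 and 7.04, was below every library of the other lines. Against MEFs, Alpl rose by 5.99 (SE 0.20, limma adjusted p = 4.89e-14). Of the other alkaline phosphatase genes, Alppl2 had no read in MEFs and at most 15 elsewhere, and with Akp3 and Alpi it was below the filter, so Alpl carried nearly all reads of this family. Of the genes that handle the same substrates, Phospho1 rose by 1.03 (limma adjusted p = 0.000287), Enpp1, which makes pyrophosphate, fell by 6.86 (limma adjusted p = 2.67e-09), and Ank, which exports it, fell by 2.41 (limma adjusted p = 4.58e-08).

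Pecam1 had the largest rise of the members. MEFs had 3, 5 and 17 reads (-2.45, -1.97 and -0.16 log2 RPM), and the 15 pluripotent libraries lay between 5.44 and 7.52 with a median of 6.92 (788 to 3380 reads). The rise was 8.35 (SE 0.36, limma adjusted p = 1.00e-12), or 6.34 with 1 added to each RPM. The groups were ordered from TX 2i ESCs at 7.42 ± 0.11 to M KSR5 at 6.36 ± 0.30 (SD, n = 3), and each overlapped with the next. F KSR4 replicate 1, at 5.44, was the lowest, where its other two libraries were at 7.15 and 6.68. Of the endothelial markers set beside it, Emcn had no read in the 15 pluripotent libraries and Cdh5 0 to 76, Kdr and Erg were called lower than in MEFs, and Tek, Vwf, Tie1 and Cldn5 were called higher.

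Of 12 other surface proteins of pluripotent cells, 8 were called higher in the pluripotent groups, 2 lower and 2 were not called. Their median log2 difference was 2.97, and among all genes tested 42.1% were called higher and 32.5% lower. Tdgf1, a co-receptor of Nodal, had no read in MEFs and 2257 to 14227 elsewhere, which, with each MEF library set to 3 reads, makes it at least 2666-fold higher. Epcam rose by 10.04 (limma adjusted p = 1.15e-15) and E-cadherin, Cdh1, by 9.28 (limma adjusted p = 7.57e-10). Il6st, the shared receptor chain for LIF, fell by 2.30 (limma adjusted p = 8.61e-08), and Cd24a by 1.01 (limma adjusted p = 0.0113). Cd9 (0.23, adjusted p = 0.216) and Prom1 (-0.12, adjusted p = 0.788) were not called by limma.

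Fut9 and Fut4, whose enzymes finish the SSEA1 sugar, did not move alike. Fut9 had 3, 15 and 15 reads in MEFs (-2.45, -0.39 and -0.34 log2 RPM) and 174 to 663 in the 15 pluripotent libraries (3.16 to 5.15, median 4.48). It rose by 5.49 (SE 0.33, limma adjusted p = 1.06e-10), or by 3.87 with 1 added to each RPM, and M KSR3, at 3.78, 3.16 and 3.50, was below every library of the other pluripotent groups. Fut4 had 13 to 42 reads in MEFs and 3 to 41 elsewhere. Its difference was -0.92 with a 95% interval from -2.15 to 0.31 (limma adjusted p = 0.163), so it was not called over the pluripotent mean. Alone among the groups, F KSR4 (-1.78, adjusted p = 0.0463) and TX 2i ESCs (-1.95, adjusted p = 0.0301) were called lower by limma for Fut4. The first of these calls was lost with limma-voom on recovered reads (adjusted p = 0.0545) and both without the filter on low values (adjusted p = 0.0795 and 0.0545). Leaving out 1 library lost the first call in 10 fits and the second in 4. Per kb of exons, the level of Fut9 minus that of Fut4 was -3.36 ± 0.48 log2 units in MEFs, and in the pluripotent groups it ran from 0.82 ± 0.53 in M KSR3 to 4.42 ± 0.30 in TX 2i ESCs (SD, n = 3). Fut4 was thus the higher of the pair in all 3 MEF libraries and Fut9 in all 15 others.

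**Figure D3:**
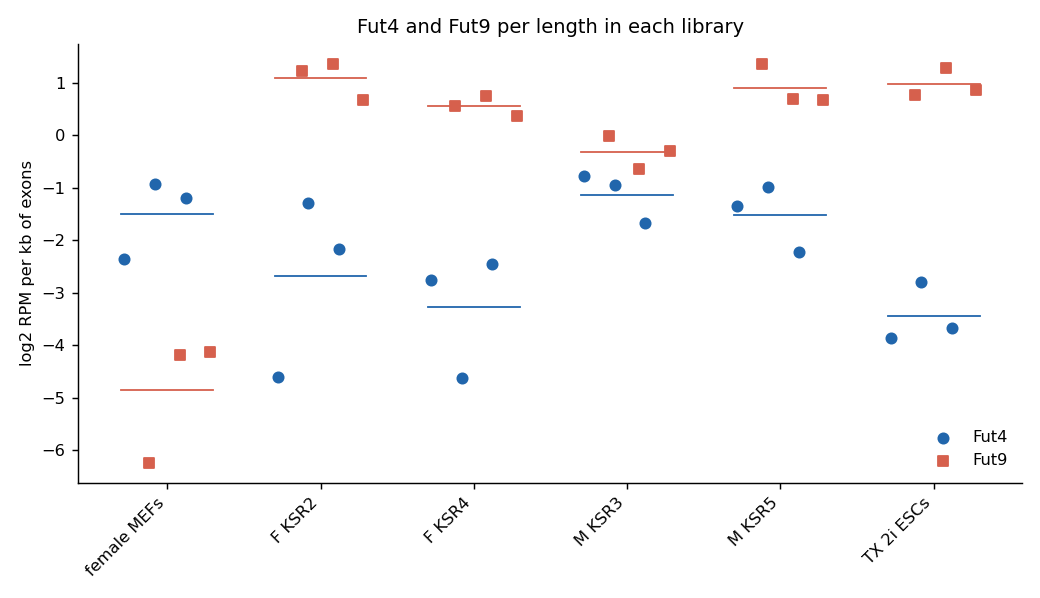
Fut4 and Fut9 in each library (y axis, log2 RPM per kb of exons) by group (x axis), with a line at the mean of 3 libraries. Fut4 is above Fut9 in MEFs, and Fut9 is above Fut4 in every pluripotent library, with the smallest gap in M KSR3.

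The rest of the route to Lewis X did not rise together. Of 16 genes tested of the 18 in the table, 5 were called higher, 9 lower and 2 not at all. Over all genes tested, 42.1% were called higher and 32.5% lower. The median log2 difference of the 16 genes was -0.95, against 0.21 over all genes tested. B3gnt7, which extends lactosamine chains, rose by 5.85 (limma adjusted p = 5.26e-11), and B3gnt5, which starts such chains on lipids, by 1.32 (limma adjusted p = 8.93e-06). Fut2, an alpha-1,2-fucosyltransferase, had no read in MEFs and up to 50 elsewhere, which, with each MEF library set to 3 reads, makes its mean at least 2.57-fold higher. Both paralogs of Fut4 and Fut9 that were tested fell, Fut10 by 2.13 (limma adjusted p = 9.71e-07) and Fut11 by 1.84 (limma adjusted p = 1.78e-05), as did the galactosyltransferase gene B4galt2, by 1.98 (limma adjusted p = 1.08e-06). Fut7 had at most 9 reads and Fut1 at most 26, and neither was tested. Levels of RNA do not give the amount of the sugar, which was not measured in these libraries.

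Between KSR-iPSCs and TX 2i ESCs, 2 of the 7 members differed, beside 23% of all genes tested. Thy1 was lower in the iPSCs by 1.57 on the log2 scale (SE 0.26, 95% interval of the difference -2.12 to -1.02, limma adjusted p = 0.000400), in 12 of 12 libraries below the lowest ESC library. Alpl was lower by 0.88 (SE 0.21, limma adjusted p = 0.00491), again in 12 of 12 libraries. Without the line F KSR2 the differences were -1.56 (adjusted p = 0.000537) for Thy1 and -0.66 (adjusted p = 0.0332) for Alpl by limma. At an unadjusted p under 0.05, Cd44 (1.82, adjusted p = 0.0867) and Fut4 (1.29, adjusted p = 0.133) were added, and limma called both without F KSR2 replicate 1. Pecam1 (-0.74, adjusted p = 0.156) was not called by limma on the deposited values, and was with voom (adjusted p = 0.0441) or with 1 added to each RPM (adjusted p = 0.0430). The intervals for Fut9 (-1.13 to 0.30) and Icam1 (-0.28 to 0.63) included 0. Medium, origin and, for the male lines, sex differ together here and cannot be told apart. Among the genes around SSEA1, the largest difference was that of Fut2, lower in the iPSCs by 2.96 (limma adjusted p = 0.000344) on at most 50 reads. B3gnt7 was higher in the iPSCs by 2.41 (limma adjusted p = 9.74e-05), and Fut10 was lower by 1.86 (limma adjusted p = 9.81e-05). Smaller differences were also called, with B4galt4 and Fuk lower in the iPSCs and B3gnt2 higher.

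Within the iPSCs no member was called in any comparison. Female and male lines (6 libraries each, 2.87% of all genes called) differed in 0 of 7 members by limma and by voom, and in 1 at an unadjusted p under 0.05. That 1 was Fut4, lower in the female lines by 1.65 (95% interval -2.90 to -0.41, limma adjusted p = 0.142). This fit counted libraries of a clone as separate samples, so its intervals do not measure spread between lines or animals. For Thy1 the female minus male difference was 0.10 with an interval from -0.46 to 0.67. F KSR2 and F KSR4 (1.14% called) differed in 0 members by limma and by voom, with Alpl at -0.91 (limma unadjusted p = 0.00292, adjusted p = 0.0976), and Alpl was called without F KSR4 replicate 1 (-1.24, limma adjusted p = 0.00539). M KSR3 and M KSR5 (4.48% called) differed in 0 members by limma. Fut9 (-1.22, limma unadjusted p = 0.0113, adjusted p = 0.120) and Icam1 (0.66, limma unadjusted p = 0.0260) passed without adjustment, and voom called Fut9 (adjusted p = 0.0226).

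The maternal (BL6) and paternal (CAST) copies of Thy1 were not used alike in MEFs. All groups come from a BL6 mother and a CAST father, with no reciprocal cross. In this and all later allele results, parent of origin and strain therefore cannot be told apart. Of the reads that could be told apart, 713 were maternal and 37 paternal in replicate 1, 705 and 22 in replicate 2, and 747 and 21 in replicate 3. These are maternal shares of 95.1%, 97.0% and 97.3% (95% Wilson interval of replicate 1, 93.3 to 96.4%, which covers counting error alone). In these libraries 16 of 9030 autosomal genes with at least 20 allelic reads, Thy1 included, had a maternal share this high. Over all genes within 5 Mb of Thy1 the share was 49.1% ± 0.2 in MEFs, and the highest of 51 single neighbours was Rexo2 at 90.6%.

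In the pluripotent libraries the shares of Thy1 were spread around the middle. They ran from 34.4 to 83.3% with a mean of 55.0% ± 13.8 (SD, n = 15), on 31 to 171 allelic reads. The pooled reads of all genes within 5 Mb were 43.6% maternal on average. The median single neighbour ran by group from 50.7% in TX 2i ESCs to 55.3% in F KSR4. For Thy1, the female lines were both at 48.3% (SD 11.4 in F KSR2 and 10.7 in F KSR4, n = 3). M KSR3 was at 64.3% ± 7.0, M KSR5 at 53.2% ± 26.3 and the ESCs at 60.9% ± 5.5 (SD, n = 3). No pluripotent library reached the MEF shares. M KSR5 replicate 3 came nearest, with 55 maternal and 11 paternal reads (83.3%, Wilson interval 72.6 to 90.4%), and it is the library with the raised fibroblast markers and Cd44 described above. Without it the other libraries of that line were at 41.9 and 34.4%. The part of residual fibroblast RNA in the share of M KSR5 replicate 3 was not tested.

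The lower Thy1 level was seen on the maternal copy. Maternal Thy1 went from 43.2 RPM in MEFs to 2.47 RPM in the pluripotent libraries, which is 5.71% of the MEF level, and paternal Thy1 from 1.63 to 1.89 RPM, which is 116%. By group the paternal level ran from 67.1% of that of MEFs in M KSR3 to 126% in F KSR4, and was 212% in TX 2i ESCs. The paternal values rest on 21 to 37 reads in a MEF library and 11 to 68 in a pluripotent one. No test was run on these levels. Cd44, by contrast, was read from both copies in MEFs (52.6% maternal ± 3.3, 1599 to 4004 reads).

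**Figure D4:**
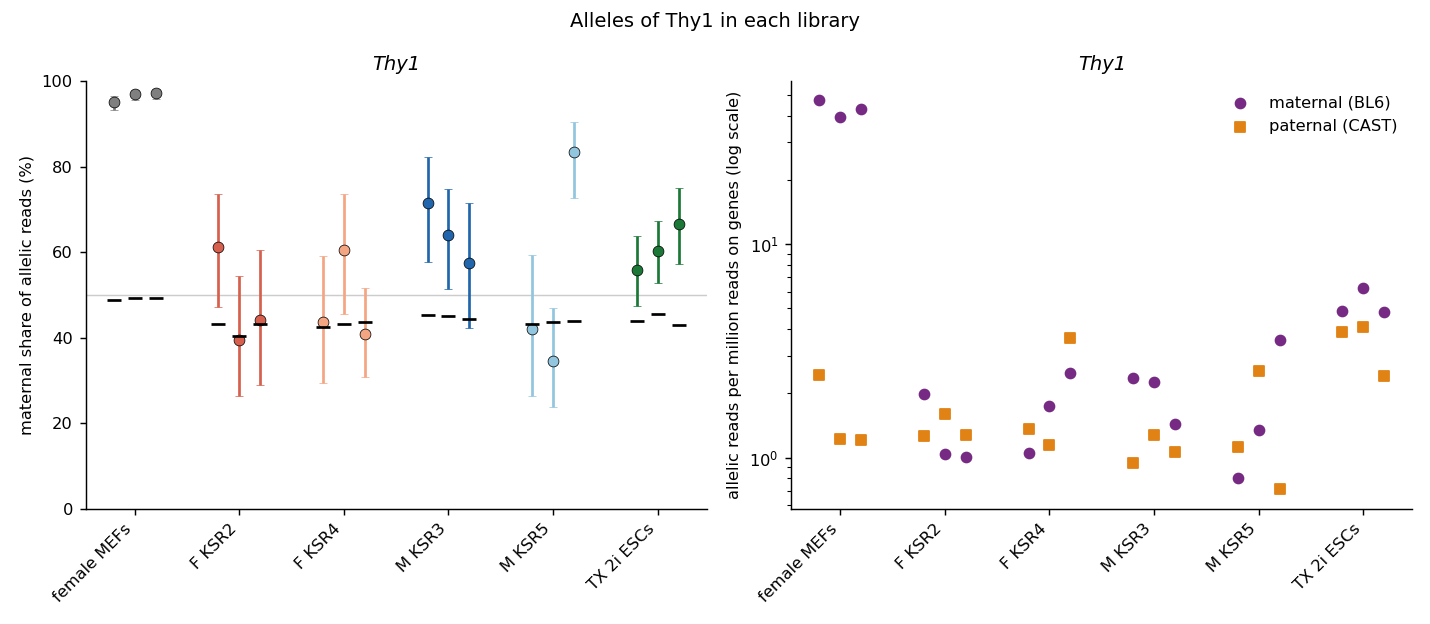
Left, maternal share of the allelic reads of Thy1 in each library (y axis, percent, points with 95% Wilson intervals) by group (x axis), with black dashes for all genes within 5 Mb. Right, maternal and paternal Thy1 level (y axis, RPM, log scale): the maternal level drops from 43.2 in MEFs to 2.47 in the pluripotent libraries, the paternal level stays between 0.711 and 4.10 in all libraries.

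Alpl was read almost wholly from the paternal copy in 1 line. In F KSR2 the maternal share was 2.04, 2.15 and 3.81% (16 of 784, 16 of 745 and 31 of 814 reads), while the other iPSC libraries lay between 39.9 and 48.9%. TX 2i ESCs were at 27.5% ± 4.6 and MEFs between 36.4 and 46.2% on 16 to 26 reads. The paternal copy gave 49.5 RPM in F KSR2, within the 47.0 to 55.4 of the other lines. Its maternal copy gave 1.38, against 35.7 to 47.4. F KSR2 is also the line with the lowest Alpl level, 0.90 ± 0.18 log2 units below the mean of the other 3 lines. Genes around Alpl moved with it in this line: those within 2 Mb were 19.2% maternal ± 3.8 and lower by 0.81 in the median (36 genes), and those within 5 Mb 38.7% ± 3.0 and lower by 0.33 (94 genes). The part of this neighbourhood in the level of Alpl was not tested.

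In TX 2i ESCs the higher Alpl level was on the paternal copy. It gave 106 RPM against 47.0 to 55.4 in the 4 iPSC lines, and the maternal copy 40.1, within the 35.7 to 47.4 of F KSR4, M KSR3 and M KSR5. Neighbours within 5 Mb were tilted the same way in the ESCs, at 34.6% maternal ± 5.1, and so were those of Fut9 on the same chromosome, at 35.6% ± 4.5. Fut9 itself was at 50.2% ± 12.4 there (36.4 to 60.5% over its libraries), which overlaps the 38.8 to 87.0% of the iPSC libraries.

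Pecam1 tilted to the maternal copy in M KSR3. Its share there was 59.4% ± 4.0, while the other 4 pluripotent groups had means from 37.4 to 42.3%, and its lowest library (55.8%) was above the highest elsewhere (52.2%). The 60 genes within 5 Mb that could be measured were higher in M KSR3 by 0.56 ± 0.05 in the median than in the other 3 lines, and the share over all genes of that window was 68.4% ± 0.3 maternal against 51.8 to 53.8% in the other groups. Pecam1 itself was higher by 0.58 ± 0.36 in that line (SD, n = 3), with libraries that overlapped those of F KSR2 and F KSR4. Icam1 used both copies in the pluripotent libraries (46.9% maternal ± 4.7, n = 15) and leaned to the paternal copy in MEFs (34.1% ± 6.0 on 49 to 68 reads). Fut4 leaned to the maternal copy in most libraries with at least 5 allelic reads, none of which had more than 19. It was at 93.8, 92.9 and 91.7% in M KSR3 and at 50, 84.2 and 80% in M KSR5. MEF replicates 2 and 3 were at 90.9 and 69.2%.

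**Figure D5:**
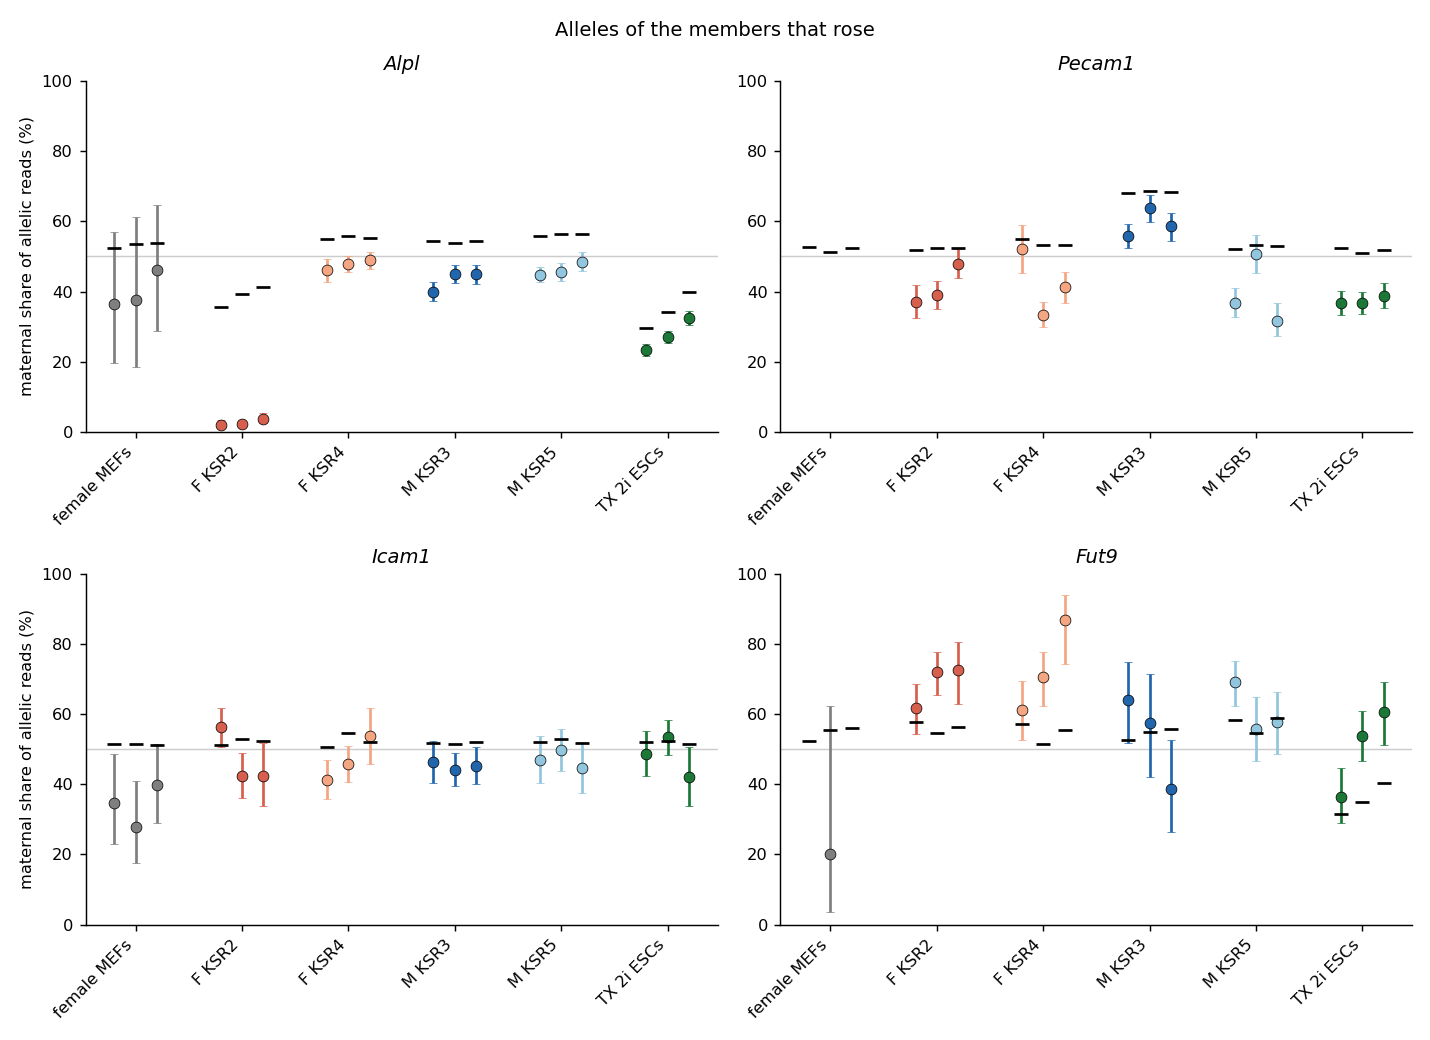
Maternal share of the allelic reads (y axis, percent, 95% Wilson intervals) of Alpl, Pecam1, Icam1 and Fut9 in each library with at least 5 such reads, by group (x axis), with black dashes for all genes within 5 Mb. Alpl lies at 2.04 to 3.81% in F KSR2 alone, and Pecam1 lies above 55% in M KSR3 alone.

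The 3 genes nearest in course over the 6 groups were taken for each member. Likeness was the root mean square difference of the 6 group means after each gene was centred, over the 14632 genes tested, as a description of 6 points that share libraries. Nearest to Thy1 were BC034090 (0.16 log2 units), Tgfbr3 (0.18) and Ttc28 (0.18). Each was higher in TX 2i ESCs than in all 4 iPSC lines, which follows from the choice by likeness to Thy1. Nearest to Cd44 were Rbms3 (0.33), Wnt5a (0.41) and the elastin gene Eln (0.42). Icam1 was followed most closely by Gcdh (0.10), Kif18b (0.11) and Rnf167 (0.12), and Fut4 by Cyb5rl, 1700034H14Rik (both 0.18) and Nlrx1 (0.18). Near Fut9 were Rims3 (0.10), Wnk2 (0.22) and Sox21 (0.25), near Alpl Arhgef15 (0.13), Tnfrsf8 (0.23) and Ccdc113 (0.24), and near Pecam1 Gm11019 (0.19), 2410012M07Rik and 8030474K03Rik (both 0.26).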

How the data were processed

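RNA-seq reads were, per the study's methods, trimmed with Trim Galore 0.6.1, mapped to GRCm38 with HISAT2 2.1.0 and counted over mRNAs by strand in SeqMonk; reads specific to the BL6 or CAST genome were counted apart. The deposited values are log2 RPM, reads-per-million of reads on genes, without a length term. Their steps gave whole reads within 0.05 for at least 99.96% of values. Another 18 columns of reads with no allele were not used, and 82 methylation samples were not analysed here. The maternal genome was taken as BL6 because 99.6 to 99.9% of allelic X-linked reads of male lines were on it. Genes above a log2 RPM of 0 in 3 or more libraries were tested with limma 3.58.1 (R 4.3.3, trend, Benjamini-Hochberg) over 18 libraries, female against male lines over 12, after a test of the code on simulated data. Lengths are merged exons of GENCODE vM21. Wilson intervals (95%) cover counting error. Neighbours of a gene lie within 5 Mb. The genes, lists and tests were chosen with earlier results of these data known. From each list, up to 3 genes with the largest change each way past the threshold were named, with paralogs of members and, by hand after values were seen, Pdgfra and the genes not called. For the markers, the 3 nearest profiles were named. Alternatives were 1 added to RPM, limma-voom, other filters, median recentring, a replicate block, line as a random effect, other windows and read minimums, and leaving out each library. Leaving out F KSR2 was chosen after the data were seen.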

Additional observations from a re-analysis of the deposited data

Results flagged for a closer look

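Thy1 and Alpl changed from MEFs by different amounts in KSR-iPSCs and in TX 2i ESCs. The MEFs cancel in this difference, so it is the contrast of KSR-iPSCs with TX 2i ESCs given above and not a further test. It was -1.57 on the log2 scale for Thy1 (limma adjusted p = 0.000400) and -0.88 for Alpl (limma adjusted p = 0.00491). Both genes were lower in the iPSCs in 12 of 12 libraries. Of 26 sets of 4 to 6 iPSC libraries of 1 sex, 5 had a library apart from the rest. Chance gives about 1 in 20 for libraries of 1 kind, but these sets join 2 clonal lines and 2 of the 5 are shares of few reads, so this rate is only a guide. Cd44 stood at 3.21 log2 RPM in M KSR5 replicate 3, far above the other 5 male libraries. Alpl was highest among the male libraries in M KSR5 replicate 1, at 8.26. Pecam1 was lowest among the female libraries in F KSR4 replicate 1, at 5.44. The maternal share of Cd44 was 0% in F KSR2 replicate 2, on 5 allelic reads, and that of Fut4 was 50% in M KSR5 replicate 1, on 8.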

How the results depend on the processing

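Of 40 called differences of a member, 706 of 720 values kept their call and direction with 1 library left out. Under the other alternatives 279 of 282 did. All lost calls were those of Fut4 in F KSR4 or TX 2i ESCs against MEFs. With 1 library left out, the Fut4 call was lost in 10 fits for F KSR4 and in 4 for TX 2i ESCs. The count of members called between KSR-iPSCs and TX 2i ESCs was 2 to 4 with 1 library left out (4, with Cd44 and Fut4, without F KSR2 replicate 1). Between F KSR2 and F KSR4 it was 0 to 1 (Alpl, without F KSR4 replicate 1). Between M KSR3 and M KSR5 it was 0 to 1 (Fut9, without MEF replicate 1), and 1, again Fut9, with 1 added to RPM and with voom.

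Differences that were not called changed sign when a library was left out, over these ranges on the log2 scale. For Cd44 they were -1.80 to 0.30 in F KSR2 against F KSR4, -1.52 to 0.32 in M KSR3 against M KSR5 and -0.21 to 0.72 in female against male lines. For Fut4 they were -0.11 to 1.55 between the female lines, and -0.074 to 0.64 for M KSR3 and -0.46 to 0.33 for M KSR5 against MEFs. For Thy1 they were -0.41 to 0.10 between the female lines, -0.26 to 0.33 between the male lines and -0.044 to 0.20 between the sexes. For Pecam1 they were -0.11 to 0.74 between the female lines and -0.24 to 0.12 between the sexes. For Icam1 they were -0.065 to 0.47 in KSR-iPSCs against TX 2i ESCs and -0.26 to 0.017 between the sexes. The cause was not tested.

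Genes around Alpl in F KSR2 were lower by a median of 0.33 within 5 Mb, with a log2 difference of -0.81 within 2 Mb and -0.16 within 10 Mb. Genes around Pecam1 in M KSR3 were higher by 0.64 within 10 Mb. With at least 20 allelic reads no library was left for Cd44 in F KSR4, Fut4 in 5 groups and Fut9 in MEFs. With 1 added to RPM, the differences from MEFs shrank for members with few reads in a group, to 6.34 for Pecam1, 3.87 for Fut9 and -7.77 for Cd44 over the pluripotent mean, and for Fut4 to -0.76 in F KSR4 and -0.85 in TX 2i ESCs. The median of all genes was 0.21 above MEFs in the pluripotent groups and -0.04 after recentring, which changed no call or direction of a member. It did move the share of called genes that were higher, from 56.5 to 48.6% in that contrast from 55.4 to 70.3% in female against male lines and from 50.3 to 28.5% in F KSR2 against F KSR4. Counts over all genes were fragile. With 1 library left out, 167 between the female lines became 66 to 1660, and 656 between the male lines became 145 to 1182. Between iPSCs and ESCs, 3372 became 2125 without TX 2i ESCs replicate 2. That count rose without F KSR4 replicate 2, to 2190 higher and 2127 lower. Between the sexes, 390 became 187 without M KSR3 replicate 3, and rose without M KSR5 replicate 3 to 255 higher and 266 lower. The count between the sexes was 138 with line as a random effect and 1523 in the 18-library fit.

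The labels do not say that a replicate number marks a shared batch, and the correlation of deviations was above 0.1 in 22 of 45 pairs of same-numbered libraries (-0.31 to 0.59), so the numbers were not taken to pair them. All 3 pairs were above 0.1 for F KSR2 with TX 2i ESCs (0.290 to 0.459) and for F KSR4 with TX 2i ESCs (0.241 to 0.522). With the replicate block the counts of members called stayed at 6 over the pluripotent mean, 32 over the single groups, 2 for iPSCs against ESCs and 0 within the iPSCs, and the count of genes between the female lines rose from 167 to 282. Fut4, Cd44 outside MEFs, and Fut9 and Pecam1 in MEFs rest on few reads, which limits their values.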
